A study of Oryza sativa with 12 samples.

Results

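Trehalose synthesis in rice was followed through 4 genes, chosen by locus: the synthase OsTPS1 (Os05g0518600) and the phosphatases OsTPP1 (Os02g0661100), OsTPP2 (Os10g0553300) and OsTPP7 (Os09g0369400). They are 4 of 38978 annotated genes in the tables. Messenger RNA bound to polysomes, the complexes of ribosomes translating an mRNA, was sequenced from leaves of Oryza sativa. Of the cultivars, APO is named tolerant in the series title and IR64 susceptible. Plants of each were kept as control or put under 50% drought, 3 libraries to a group and 12 in all. The labels name no transgene, other agent or plant age. Nor do they tie libraries to separate plants, so the p-values measure a spread that may be technical.

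Trehalose is a disaccharide of glucose made in a pair of steps. Trehalose-phosphate synthase joins UDP-glucose and glucose phosphate to trehalose phosphate, and trehalose-phosphate phosphatase removes the phosphate. Trehalase then splits trehalose into glucose. In plants the intermediate follows the supply of sucrose and inhibits the kinase SnRK1, which acts when sugar is scarce, so enzymes of both steps are known as regulators of carbon use. OsTPP7 is known from rice that germinates under water, and IR64 is described in that work as lacking the gene.

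Levels are given as nuclear-scaled TPM, the deposited TPM (read density per gene length, scaled to one total per library) rescaled to that same total over the nuclear loci of each library. This was done because the nuclear share of the deposited TPM ran from 1.21 to 83.3% between libraries. Below 10% lay APO control 3 (5.04%) and, lowest, the one labelled APO drought 1 (1.21%). Both were left out of the test, which leaves 10 libraries with 2 in each APO group. The values of both are given beside each trehalose gene tested. The library labelled APO drought 1 also went against its label, with 0 of 16 genes typical of APO above 1 nuclear-scaled TPM and 12 of 17 genes typical of IR64. APO control 3 had 16 of 16 APO-typical and 10 of 17 IR64-typical genes above 1, and in IR64 control 1 this held for 7 of 18 APO-typical genes (median 0.361). Read numbers were not used here, so depth is known only as coverage, the mean read depth per base. The lowest coverage above 0 of any of the 4 genes was 0.378, worth 0.107 nuclear-scaled TPM in IR64 control 2, 3.93 in APO drought 2, 9.22 in IR64 drought 3 and 28.7 in that labelled APO drought 1. The 6 leaf markers summed to 1377 to 1551 in APO drought 2 and 3, and to 6676 to 27296 in the other 8 libraries of the test. Among root markers RCc3 was at 5.05 or less and LSI2 at 4.82 or less in the 10 libraries, while LSI1 reached 67.7. The drought-induced dehydrin Rab16A stood at 10.6 to 215 in the 5 control libraries of the test and at 3049 to 44915 in the 5 drought libraries.

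The clearest pattern among the 4 genes lay between the cultivars, in OsTPP7. This phosphatase gene (chromosome 9, 12251875 to 12254061, plus strand, coordinates of the deposited tables, build not stated) stood at 85.8 and 64.1 nuclear-scaled TPM in APO control 1 and 2 and at 16.1 and 23.6 in APO drought 2 and 3. In IR64 it was listed at 0 in 5 of 6 libraries and at 1.53 in IR64 control 1. That library had 7 of 18 APO-typical genes above 1 (median 0.361), and the other IR64 libraries were not checked in this way. Every APO library of the test lay above every IR64 library. The best covered IR64 libraries were the control ones, where coverage of 0.378 would have given 0.107 to 0.338 nuclear-scaled TPM, against 0.671 to 9.22 in the IR64 drought libraries. Of the libraries left out, APO control 3 stood at 20.7, and the library labelled APO drought 1 was listed at 0.

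In the test across all genes (limma, Benjamini-Hochberg adjustment, call at adjusted p < 0.05) OsTPP7 was higher in APO than in IR64 by 5.79 ± 0.63 log2 units in control plants (SE, n = 2 and 3, adjusted p = 0.00362). Under drought it was higher by 4.36 ± 0.63 (n = 2 and 3, adjusted p = 0.00229). These sizes depend on the pseudocount of 1 because IR64 lies at or near 0. It was the one member called in either comparison of cultivars. Of 22812 genes tested, 0.456% were called higher and 0.149% lower in APO control than in IR64 control, and 5.66% higher and 6.68% lower in APO drought than in IR64 drought. With median-of-ratios scaling the second pair was 2174 higher and 1324 lower of 22975 genes, against 1292 and 1523 here. With nuclear-scaled TPM of all 12 libraries, unweighted, OsTPP7 did not pass in control (5.19, adjusted p = 0.113) or drought (2.90, adjusted p = 0.304). Of all genes 0.111 and 0.176% were called there. With library weights OsTPP7 passed in both (5.55 and 4.24, adjusted p = 3.43e-07 and 0.00511, limma). That setting called 48.3% of all genes in control and 8% in drought. Without APO control 1 the control comparison did not pass either (5.58, adjusted p = 0.088).

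Of the 5 loci before OsTPP7, 2 were expressed in both cultivars, and Os09g0368400, PAO7 and OsEnS-126 were at 0.0722 or less in every library of the test. OsERF#050, which starts 35.4 kb before it and encodes a transcription factor of the ERF family, ranged from 62.0 to 142 nuclear-scaled TPM over 4 APO libraries and from 97.9 to 180 over 6 IR64 libraries. Os09g0369050, 34.4 kb before it, ranged from 61.2 to 131 and from 71.2 to 259. Both were above 0 in every library of the test, and neither passed between cultivars (adjusted p from 0.395 to 0.771). On the other side OsEnS-127, 11.4 kb after the start of OsTPP7, was above 0 in 1 APO library (0.199) and 0 IR64 libraries, so its level carries little. Os09g0369750 ranged from 0.0766 to 2.20 nuclear-scaled TPM in APO and from 0 to 0.270 in IR64, and Os09g0370000 from 0.0641 to 4.12 and from 0 to 1.59. Os09g0370200, 38.1 kb after, ranged from 0 to 9.48 in APO and from 2.90 to 9.10 in IR64. SDH2-2, 43.8 kb after, a gene for a succinate dehydrogenase subunit, was higher in APO drought than in IR64 drought by 2.17 ± 0.56 (adjusted p = 0.0309, limma). It did not pass in control (0.21 ± 0.56, adjusted p = 0.924). The drought call was lost in 10 of 16 other settings (adjusted p from 0.0576 to 0.641). Of these, 4 were without IR64 control 1, IR64 control 2, IR64 drought 1 or IR64 drought 3. SDH2-2 stood at 3.62 (coverage 0.348) and 5.37 in APO drought 2 and 3, and at 0, 0.756 and 0 in IR64 drought. A coverage of 0.378 was worth 3.18 and 9.22 in IR64 drought 1 and 3. The levels compared thus lie near the lowest that such libraries can show. APO control 3, left out, stood at 20.4 on a coverage of 0.911.

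**Figure D1:**
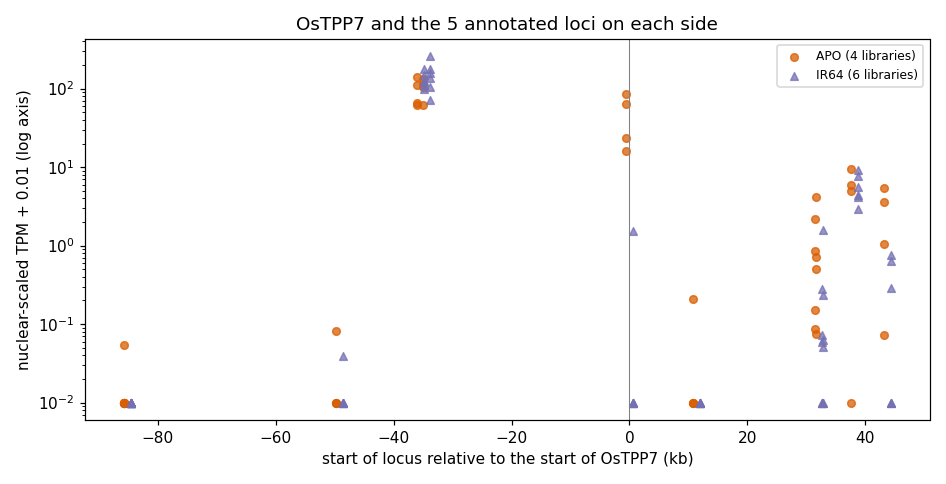
Nuclear-scaled TPM (plus 0.01, log axis) of OsTPP7 and the 5 annotated loci on each side against the distance of their starts from that of OsTPP7 in kb, with 1 point for each of 4 APO and 6 IR64 libraries. At 0 kb the APO libraries stand between 16.1 and 85.8 and the IR64 libraries at 0 or 1.53, while the pair of loci about 35 kb before lies above 61 in both cultivars.

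Drought was the treatment of the study, and the next question was whether it moved the 4 genes. In APO OsTPS1, OsTPP1 and OsTPP7 were lower in the drought libraries than in the control libraries of the test, without overlap. None of them passed the adjusted threshold. The share of all genes without overlap was not computed, so non-overlap alone is not read as a change. None of the 4 was called in APO, where 6.8% of all genes tested were called higher and 7.6% lower. None was called in IR64 either, where 1.12% were called higher and 0.307% lower (255 and 70 genes, or 57 and 47 with median-of-ratios scaling). With limma 2 of the 4 had an unadjusted p under 0.05 in APO, as did 30.4% of all genes, and 0 of the 4 in IR64, as did 18.4% of all genes. The median of the 4 was -1.24 log2 units in APO against -0.24 over all genes tested, and -0.46 in IR64 against 0.16.

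OsTPS1 (chromosome 5, 25714880 to 25722087, plus strand) encodes the synthase of class I, the class with known catalytic activity in plants. It was the steadiest of the 4 genes. Its level was 13.2 and 11.9 nuclear-scaled TPM in APO control 1 and 2, 5.55 and 10.99 in APO drought 2 and 3, 20.03, 22.5 and 9.34 in IR64 control 1, 2 and 3, and 11.7, 8.75 and 14.6 in IR64 drought 1, 2 and 3. Group means ran from 17.3 ± 6.99 in IR64 control (SD, n = 3) through 12.6 ± 0.902 in APO control (n = 2) and 11.7 ± 2.90 in IR64 drought (n = 3) to 8.27 ± 3.85 in APO drought (n = 2), with no pair of neighbours in this order apart by more than their spread. The highest values were those of IR64 control 1 and 2, and IR64 control 3 lay among the drought libraries, while the APO groups did not overlap. The drought difference was -0.61 ± 0.58 log2 units in APO (95% interval -1.89 to 0.66, adjusted p = 0.501, limma, n = 2 and 2). In IR64 it was -0.47 ± 0.47 (interval -1.51 to 0.57, adjusted p = 0.637, n = 3 and 3). APO control 3 stood at 8.48 with a coverage of 0.378, and the library labelled APO drought 1 was listed at 0.

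OsTPP1 (chromosome 2, 26767607 to 26771623, minus strand), a phosphatase gene known to respond to cold in rice, had the widest spread between libraries of one group, an SD of 41.7 in IR64 control. It stood at 25.4 and 74.8 nuclear-scaled TPM in APO control 1 and 2, and at 0 and 3.35 in APO drought 2 and 3. In IR64 it was 2.00, 2.53 and 74.4 in control 1, 2 and 3, and 39.6, 2.40 and 15.1 in drought 1, 2 and 3. The APO groups did not overlap, while the IR64 groups overlapped, with control 3 near APO control 2. The difference in APO was -4.42 ± 1.56 log2 units and did not pass (95% interval -7.88 to -0.97, adjusted p = 0.0848, limma, n = 2 and 2). The IR64 difference was 0.49 ± 1.28 (interval -2.33 to 3.31, adjusted p = 0.877, n = 3 and 3). The difference between the responses, -4.91 ± 2.02, did not pass either (adjusted p = 0.164). Both libraries left out were listed at 0, and with all 12 libraries, unweighted, the APO difference was -2.95 (adjusted p = 0.328). With APO drought 2 at 0, its size depends on the pseudocount. It passed with a fit of the APO groups alone (adjusted p = 0.000121, limma) and without IR64 control 3 (adjusted p = 0.0211). Those settings called 23.2 and 20.9% of all genes.

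CCA1, a clock gene with its peak in the morning, was opposite to OsTPP1 in some of these libraries. In IR64 control 1 and 2 it stood at 636 and 953 nuclear-scaled TPM, where OsTPP1 was at 2.53 or less, and at 1.91 in IR64 control 3, where OsTPP1 was at 74.4. APO had 3.44 and 1.63 in control 1 and 2 and 82.6 and 55.5 in drought 2 and 3. The IR64 drought libraries had 28.2, 2.60 and 9.74, and in drought 2 both genes were low. Pearson's r of the log2 levels was -0.66 over the 10 libraries. Within APO the drought difference of CCA1 was 4.33 ± 2.16 log2 units and did not pass (adjusted p = 0.203, limma). Of the other clock genes listed, GI overlapped between APO control and drought (-0.56 ± 0.51, adjusted p = 0.487). OsPRR1 was lower in APO drought without a call (-0.84 ± 0.50, adjusted p = 0.279). The part of the time of sampling in the levels of OsTPP1 was not tested. Nor was it tested for the trehalose genes called in APO, given below (OsTRE, OsTPP9 and OsTPS3).

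OsTPP2 (chromosome 10, 21707054 to 21710973, minus strand), another phosphatase gene, was low throughout. It stood at 1.62 and 1.23 nuclear-scaled TPM in APO control 1 and 2, at 0 and 7.94 in APO drought 2 and 3, at 5.69, 7.37 and 1.11 in IR64 control, and at 3.28, 1.78 and 0 in IR64 drought. The groups overlapped in both cultivars. The values of APO control 1 and IR64 drought 1 rest on coverages of 0.388 and 0.391. The drought difference was 0.31 ± 1.11 log2 units in APO (95% interval -2.14 to 2.76, adjusted p = 0.882, limma, n = 2 and 2) and -1.11 ± 0.91 in IR64 (interval -3.11 to 0.89, adjusted p = 0.552, n = 3 and 3). APO control 3 stood at 8.84 on a coverage of 0.395, the library labelled APO drought 1 was listed at 0, and with all 12 libraries, unweighted, the APO difference turned to -0.89 (adjusted p = 0.670).

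For OsTPP7 the drought difference within APO was -1.88 ± 0.69 log2 units (95% interval -3.39 to -0.36, adjusted p = 0.0939, limma, n = 2 and 2), from a mean of 75.0 ± 15.4 to 19.8 ± 5.35 nuclear-scaled TPM (SD). APO control 3, at 20.7 on a coverage of 0.923, lies within the range of the drought libraries, and with it kept the difference was -1.28 (adjusted p = 0.345). A fit of the APO groups alone called it (adjusted p = 0.00197, limma), with 23.2% of all genes called. In IR64 the drought libraries were all listed at 0, and no fold is given.

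**Figure D2:**
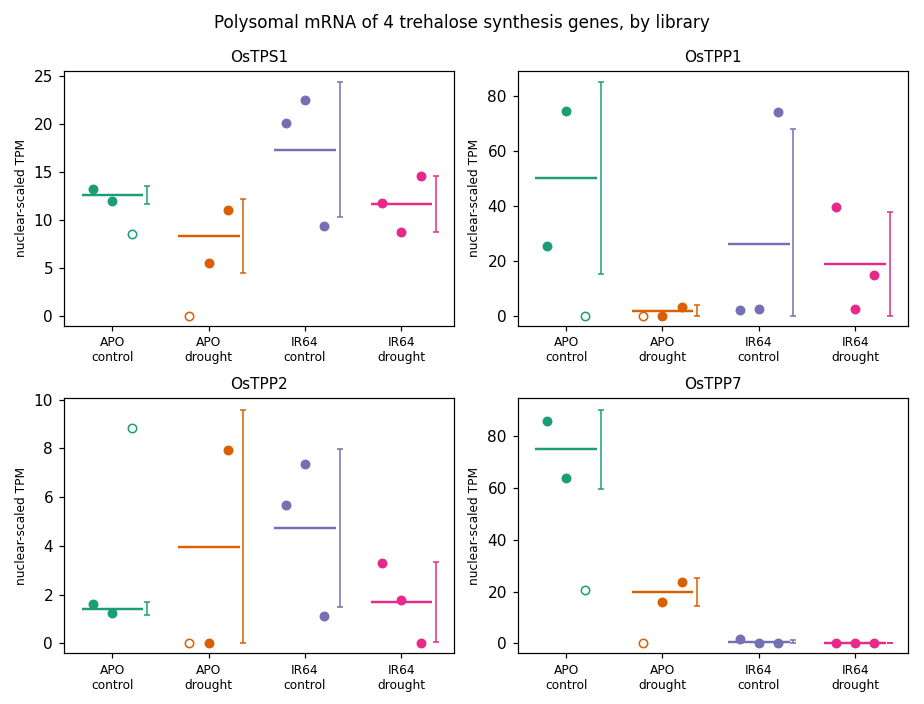
Nuclear-scaled TPM of the 4 genes in each library, with lines for the mean and bars for the SD (stopped at 0) of the 10 libraries of the test, and open points for the pair left out. OsTPP7 is at 16.1 or more in the filled APO points and at 1.53 or less in IR64, and OsTPP1 ranges from 2.00 to 74.4 within IR64 control alone.

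The difference between the drought responses of the cultivars was tested as an interaction and called for none of the 4 genes (adjusted p from 0.164 to 0.926, limma), with 1.54% of all genes called higher and 3.65% lower in it (351 and 832 genes, or 629 and 515 with median-of-ratios scaling). By unadjusted p under 0.05, 1 of the 4 passed, OsTPP1, as did 25% of all genes. The OsTPP1 difference was called with library weights (-4.70, adjusted p = 0.0222, limma) and without IR64 control 3 (-6.43, adjusted p = 0.0162). Those settings called 25.3 and 20.2% of all genes.

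Among themselves the 4 genes varied with little in common over the 10 libraries. Pearson's r of their log2 levels ran from -0.23 for OsTPS1 with OsTPP7 to 0.58 for OsTPS1 with OsTPP2, a description over libraries that differ in depth and share groups. The genes with a symbol whose log2 levels were most like each member over the 10 libraries, of 6954 compared, differed by member. For OsTPS1 they were OsPFK06, a phosphofructokinase gene (r = 0.97), OsC3H63 (0.93) and OsCBSCLC2 (0.93). OsPFK06 had its highest group mean in IR64 control (38.4 nuclear-scaled TPM) and its lowest in APO drought (3.18). For OsTPP1 they were the transcription factor genes OsDREB1B (0.95), DERF12 (0.95) and WRKY74 (0.95), and the means of OsDREB1B were 597 and 10.7 in APO (control, then drought) and 412 and 330 in IR64. For OsTPP2 they were OsbZIP01 (0.93), OsLRR-RLK1 (0.92) and OsSTA175 (0.89). For OsTPP7 they were OsEXO70X3 (0.97), OsFbox624 (0.97) and OsAT19 (0.96), of which OsFbox624 had a mean of 5.74 in APO control, 0.0364 in IR64 control and 0 in IR64 drought.

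The wider pathway was read from loci whose symbol names a trehalose gene. Candidate loci without such a symbol were dropped, so sums, shares and counts below cover the listed genes only. There were 13 further loci, 6 synthases, 6 phosphatases and the trehalase OsTRE. Of these 9 were tested, and OsTPP3, OsTPP4, OsTPP5 and OsTPP8 stayed under the filter of a mean of 1 nuclear-scaled TPM. In APO 2 of the 9 rose under drought (OsTRE and OsTPP9) and 1 fell (OsTPS3), against 6.8 and 7.6% of all genes. With all 12 libraries unweighted 0 trehalose genes were called in APO, against 3 here, with 3.03% of all genes called. With library weights 5 were called, with 22% of all genes. The median of the 9 was 0.81 log2 units against -0.24 over all genes. In IR64 0 of 9 were called by limma, with 3 at an unadjusted p under 0.05 (OsTPS5, OsTPS6 and OsTPS8), against 18.4% of all genes, and a median of 0.60 against 0.16.

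Of the 3 pathway genes called in APO, OsTRE had the largest difference at the pseudocount of 1, while at 0.1 that of OsTPP9 was larger (6.60 against 5.55, neither called). OsTRE (Os10g0521000, chromosome 10, 20154610 to 20159181) is the gene for trehalase, which breaks trehalose down. It stood at 2.85 and 7.71 nuclear-scaled TPM in APO control 1 and 2 and at 191 and 264 in APO drought 2 and 3. IR64 had 17.2, 17.8 and 1.58 in control and 10.2, 17.3 and 0 in drought. The drought libraries of APO lay above all other libraries of the test, and the IR64 groups overlapped. OsTRE rose in APO by 5.28 ± 1.31 log2 units (adjusted p = 0.023, limma, n = 2 and 2) and was higher in APO drought than in IR64 drought by 5.26 ± 1.19 (adjusted p = 0.019, n = 2 and 3). The difference between the responses, 5.99 ± 1.69, did not pass (adjusted p = 0.0653). Of those left out, the library labelled APO drought 1 was at 29.3 on a coverage of 0.387 and APO control 3 at 6.09. With all 12 libraries, unweighted, the rise did not pass (4.22, adjusted p = 0.0642). The difference between drought groups lost its call in 5 of 19 other settings, among them that one (4.29, adjusted p = 0.158) and without APO drought 2 (adjusted p = 0.123) or APO drought 3 (adjusted p = 0.0966). Without either APO control 1 or 2, or APO drought 2 or 3, the rise within APO was 4.70 to 5.87. Its call was lost in each of these fits, which leave a lone library in an APO group.

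OsTPP9 (Os03g0386500, chromosome 3, 15381800 to 15384276) was the phosphatase gene that rose in APO. It was at 0 and 0.847 nuclear-scaled TPM in APO control 1 and 2 and at 32.8 and 27.1 in APO drought 2 and 3, a difference of 4.50 ± 1.15 log2 units (adjusted p = 0.0263, limma, n = 2 and 2). Its IR64 values were 3.23, 3.24 and 1.79 in control and 4.76, 20.8 and 0 in drought, and did not pass (adjusted p = 0.844). With APO control 1 at 0 its size depends on the pseudocount. The library labelled APO drought 1 was listed at 0. APO control 3 had 20.6 on a coverage of 0.921, and with it kept the APO difference was 3.17 (adjusted p = 0.154). The call was also lost without any one APO library of the test (adjusted p from 0.0816 to 0.175). OsTPP6 (Os08g0409100) was the phosphatase gene with the highest level in most IR64 libraries, at 108, 133 and 24.9 in control and 47.7, 80.7 and 87.7 in drought. In APO it was at 19.5 and 22.0 in control and 25.6 and 77.7 in drought (11.3 in APO control 3 and 35.9 in the one labelled APO drought 1), and it passed in no comparison (adjusted p from 0.363 to 0.991).

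The makeup of the phosphatase mRNA can be read as shares of its sum. That sum over the 9 genes ran from 81.6 to 163 nuclear-scaled TPM in the 10 libraries. OsTPP7 held 64.8 and 39.2% of it in APO control 1 and 2, 19.7 and 16.7% in APO drought 2 and 3, and 0 to 1.27% in IR64. OsTPP6 held 14.8 and 13.5% in the APO controls and 31.4 and 55.0% under drought. Its IR64 shares were 89.4, 90.7 and 24.2% without drought and 50.0, 75.3 and 85.3% with it. In IR64 control 3 OsTPP1 (74.4) exceeded OsTPP6 (24.9).

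**Figure D3:**
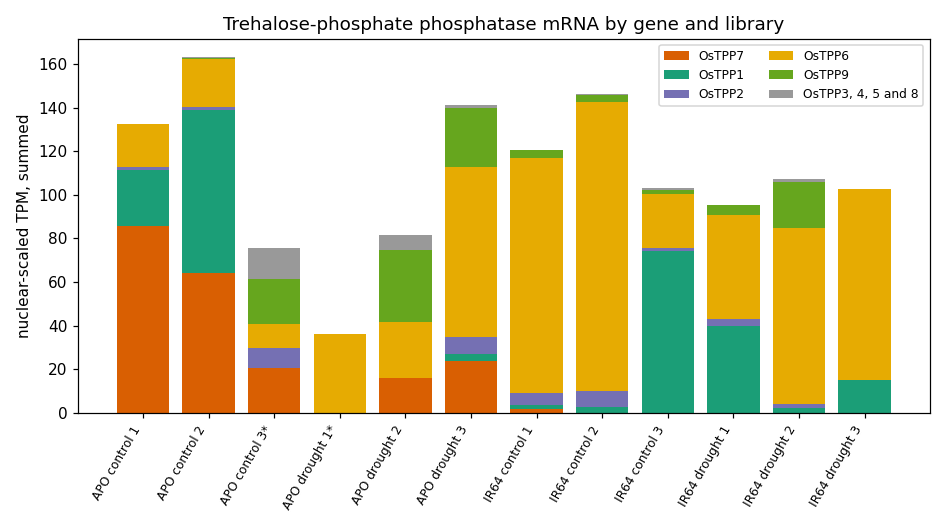
Stacked nuclear-scaled TPM of the 9 phosphatase genes in each of the 12 libraries, with an asterisk on the pair left out of the test. OsTPP7 appears in 5 of 6 libraries labelled APO, being at 0 in the one labelled APO drought 1, and as 1.53 in IR64 control 1, and OsTPP6 makes up 89.4 and 90.7% in IR64 control 1 and 2.

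Class II synthases carry a synthase-like and a phosphatase-like part and are mostly without known synthase activity. OsTPS1, of class I, held 0.856 to 12.5% of the summed level of the listed synthases in each library of the test. OsTPS3 (Os01g0730300) was the one that fell in APO, from 87.0 and 81.5 nuclear-scaled TPM in control to 16.8 and 29.4 in drought (-1.87 ± 0.47 log2 units, adjusted p = 0.0251, limma, n = 2 and 2). The IR64 libraries stood at 38.1, 43.9 and 86.0 in control and 85.3, 54.5 and 59.6 in drought (adjusted p = 0.710). Between APO drought and IR64 drought the difference was -1.51 ± 0.43 (adjusted p = 0.0459), a call lost in most other settings, among them median-of-ratios scaling (-1.10, adjusted p = 0.0509). Without APO control 1, APO control 2 or APO drought 2 the fall within APO did not pass (adjusted p from 0.111 to 0.175). The libraries left out stood at 151 (APO control 3) and 65.2 (labelled APO drought 1), and with all 12 libraries, unweighted, the fall did not pass (-1.65, adjusted p = 0.132). OsTPS4 (Os03g0224300) was also lower in APO drought, at 17.7 and 23.2, than in IR64 drought, at 63.2, 81.3 and 97.4 (-1.92 ± 0.34, adjusted p = 0.00599). The library labelled APO drought 1 stood at 54.9, near the IR64 drought range, and APO control 3 at 37.2. The call was lost with all 12 libraries unweighted (-1.45, adjusted p = 0.263), on deposited TPM (-2.14, adjusted p = 0.964) and without APO drought 2 (-1.74, adjusted p = 0.0594).

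OsTPS5 (Os02g0790500) had the highest level of the synthases in every drought library, at 194 and 196 nuclear-scaled TPM in APO control and 471 and 540 in APO drought. For IR64 the values were 56.9, 39.0 and 239 in control and 382, 450 and 498 in drought. Neither cultivar's groups overlapped, with differences of 1.37 ± 0.68 log2 units in APO (adjusted p = 0.199, limma, n = 2 and 2) and 2.42 ± 0.55 in IR64 (adjusted p = 0.0621, n = 3 and 3). The libraries left out stood at 168 (APO control 3) and 467 (labelled APO drought 1).

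All 6 listed class II synthases had a higher mean log2 level in IR64 drought than in IR64 control (median 1.31) and 0 were called. With median-of-ratios scaling, however, OsTPS3 turned to -0.23. On deposited TPM OsTPS2 (-0.89), OsTPS3 (-1.20) and OsTPS4 (-0.93) turned. For several of the 6 synthases IR64 control 1 and 2 stood apart from control 3. OsTPS6 (Os05g0517200) was at 5.05 and 4.01 nuclear-scaled TPM in control 1 and 2, at 62.8 in control 3 and at 51.2, 38.6 and 58.8 in drought. OsTPS8 (Os08g0445700) was at 5.75 and 1.29, then 28.6, and at 24.2, 43.0 and 35.5 in drought. OsTPS2 (Os01g0749400) was at 19.0 and 23.5, then 81.0, and at 58.7, 36.0 and 64.4 in drought. Thus control 3 lay within or above the drought range for these 3 genes. Without control 3, 4 trehalose genes were called in IR64, against 0 with it, and calls over all genes moved in the same way, to 2861 higher and 1051 lower of 22942 from 255 and 70 of 22812. The same control libraries were the ones with CCA1 at 636 and 953 against 1.91, and the part of the time of sampling was not tested. In APO OsTPS2 (66.6 and 70.5 against 86.5 and 89.1), OsTPS6 (51.4 and 58.1 against 22.0 and 26.4) and OsTPS8 (26.0 and 14.1 against 29.0 and 41.0) did not overlap between control and drought in the libraries of the test and did not pass (adjusted p from 0.448 to 0.731). In the libraries of the test OsTPS1, OsTPS3, OsTPS4 and OsTPS5 did not overlap in APO either. The share of all genes without overlap was not computed, so non-overlap alone is not read as a change. The libraries left out end the separation of OsTPS1, OsTPS2, OsTPS4, OsTPS6 and OsTPS8, while OsTPS3 and OsTPS5 stay apart with them. For OsTPS1 APO control 3 stood at 8.48, and for OsTPS4 the library labelled APO drought 1 stood at 54.9. APO control 3 stood at 79.6, 38.9 and 25.5 for OsTPS2, OsTPS6 and OsTPS8, and the one labelled APO drought 1 at 66.3, 106 and 0.

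**Figure D4:**
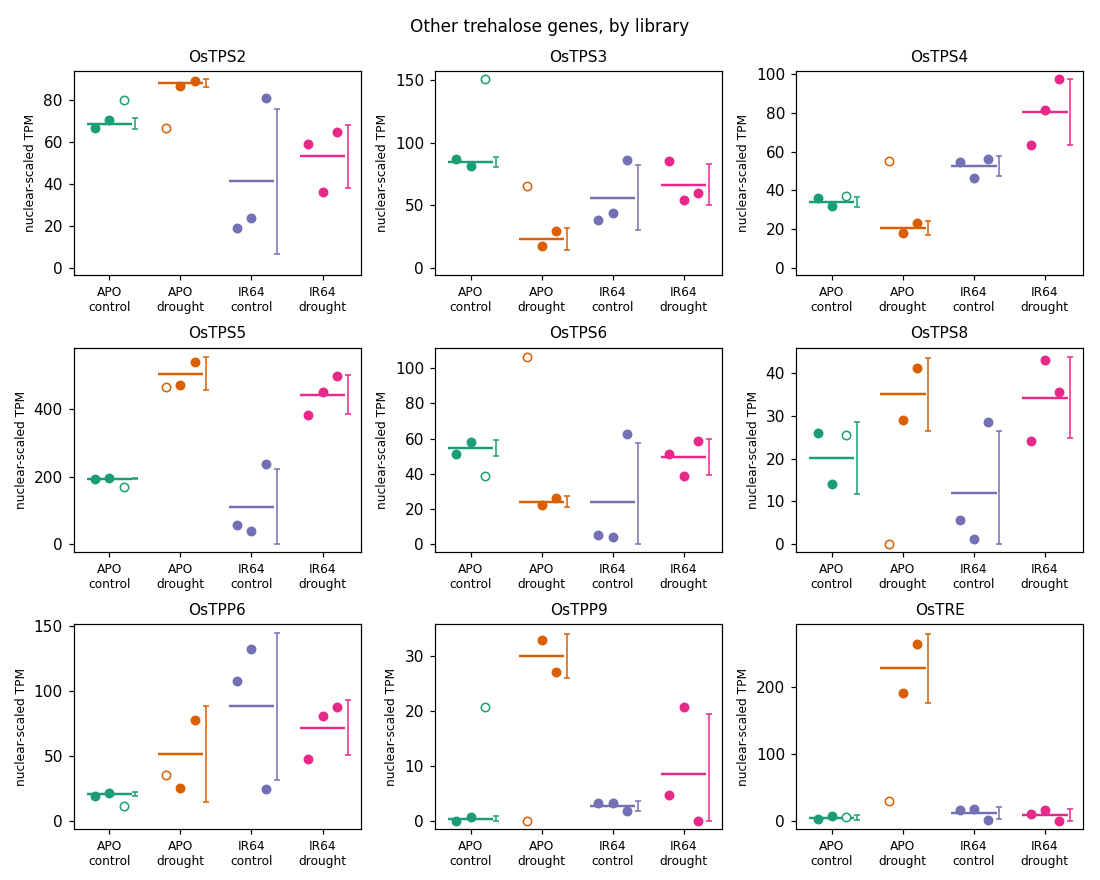
Nuclear-scaled TPM by library for the 9 other trehalose genes tested, drawn as for the 4 members (lines are means and bars SD of the 10 libraries, open points the libraries left out). OsTRE stands at 191 and 264 in APO drought and at 17.8 or less in the other filled points, and IR64 control 1 and 2 lie below control 3 for OsTPS5, OsTPS6 and OsTPS8.

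**Figure D5:**
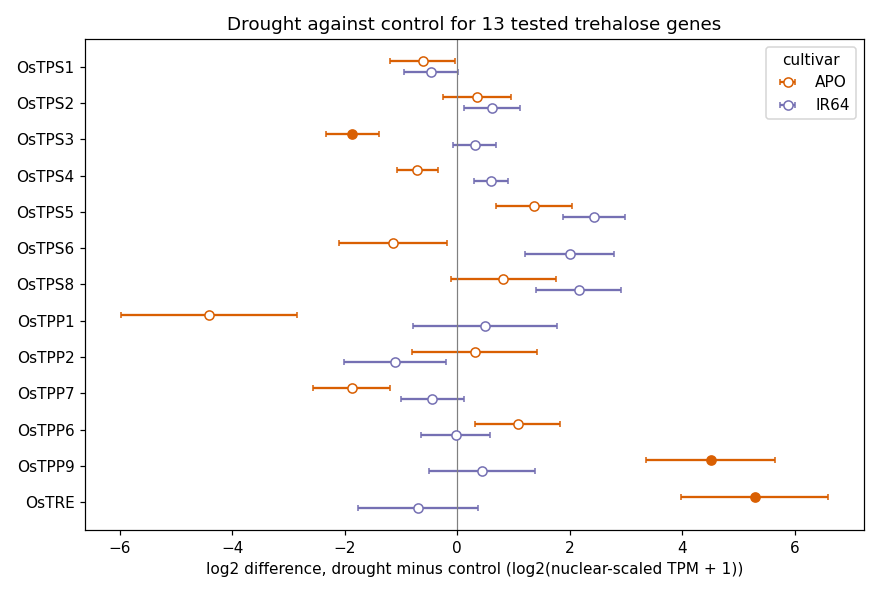
Log2 differences between drought and control with their SE for the 4 members and 9 other trehalose genes in APO (n = 2 and 2) and IR64 (n = 3 and 3), with filled points for adjusted p < 0.05. OsTPS3 (-1.87), OsTPP9 (4.50) and OsTRE (5.28) in APO are the filled points.

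The catalytic SnRK1 genes, whose product is inhibited by trehalose phosphate, showed no call beside these. SNRK1A ranged from 42.5 to 50.7 nuclear-scaled TPM in the APO libraries of the test and from 30.1 to 64.4 in IR64, with 29.8 in APO control 3 and 110 on a coverage of 0.832 in the one labelled APO drought 1. Of SNRK1A, OSK3 and OSK4, 0 of 3 were called in either drought comparison by limma (0 higher and 0 lower). Adjusted p ran from 0.672 to 0.950 in APO and from 0.159 to 0.9996 in IR64. Of all genes 6.8% were called higher and 7.6% lower in APO, and 1.12 and 0.307% in IR64. Beside those shares a count over 3 genes carries little. OSK4 had the lowest p in IR64, at 11.6, 10.3 and 16.7 in control and 31.4, 21.9 and 30.9 in drought, without overlap. OSK3 did not overlap in IR64 either, but was lower in drought (-0.45 ± 0.32 log2 units, adjusted p = 0.489, limma). Non-overlap alone is not read as a change, since its share over all genes was not computed.

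In all of these bulk leaf samples, fewer cells of a type and less RNA per cell cannot be told apart. Leaf markers moved with drought in the APO libraries of the test, where 5 of 6 were called lower (median -5.79 log2 units) beside 7.6% of all genes. Over the left-out libraries the 6 markers summed to 7962 in APO control 3 and 7464 in the one labelled APO drought 1. The fall thus rests on APO drought 2 and 3. In IR64 0 of 6 were called beside 0.307% of all genes, but all 6 were lower (median -1.06) and for 4 of them, the RbcS loci, the groups did not overlap (from -2.34 to -0.98, adjusted p from 0.0594 to 0.288, limma). The share of all genes without overlap was not computed. The part of the leaf markers in the values of the trehalose genes was not tested.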

How the data were processed

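Polysomal RNA of 12 rice leaf libraries was analysed from 1 gene table per library. Per the file headers, the authors deposited coverage (a signal, the mean read depth per base), FPKM and TPM for each gene. HISAT2 2.1.0, StringTie 1.3.4 and DESeq2 2.11.38 are named in the submitters' processing notes without a role, and the genome build is not given in the sources used here. TPM was rescaled to one total over 37849 nuclear loci. Genes with a mean of at least 1 were tested with limma 3.58.1 (R 4.3.3) on log2(value + 1) in 1 fit of 4 group means with an intensity trend, two-sided. Adjustment was by Benjamini-Hochberg over 22812 genes. Genes typical of 1 cultivar were at 8 or more in all its libraries and 8 times over the other. Members, lists and left-out libraries were chosen with earlier results of these data known. Of 21 candidate trehalose loci 5 were dropped for want of a matching symbol and 1 was added. OsTPS is also a symbol of terpene synthases, so loci are given. Named were all members, called pathway genes and those at a mean of 20 or more, up to 4 called genes of other lists, the 3 most alike genes per member and 5 loci on each side of OsTPP7. The fit was tested on simulated data. Python 3.11.15 was used for tables.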

Additional observations from a re-analysis of the deposited data

How the results depend on the processing

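Values are log2 differences. On deposited TPM the difference between cultivar responses of OsTPS1 turned to 0.99, OsTPP1 in IR64 to -0.83, OsTPS3 in IR64 to -1.20, OsTPP9 in IR64 to -0.070, OsTPS2 to -0.68 in APO and -0.89 in IR64, OsTPS4 in IR64 to -0.93, and OsTPS8 in APO to -0.24. OsTPP7 between drought groups was 1.97 and lost its call. With nuclear-scaled TPM of 12 libraries OsTPP2 turned to -0.89 in APO and -0.14 between drought groups, OsTPS8 to -1.03 in APO, and OsTPP7 lost its calls between cultivars (5.19 in control, 2.90 in drought). With APO control 3 kept OsTPS1 (response difference) was 0.026 and OsTPP2 in APO -0.37. Library weights gave 0.31 for OsTPS1 (response difference). They called OsTPP1 in APO (-3.50), between controls (3.06) and in the response difference (-4.70), and OsTPP2 between controls (-1.43). Of all genes 22% were called in APO with weights, 48.3% between controls and 25.3% in the response difference. Median-of-ratios scaling gave 0.65 for OsTPS1 (response difference) and -0.23 for OsTPS3 in IR64, and moved the median of all genes from -0.24 to 0.02 in APO and from 0.16 to -0.21 in IR64. A pseudocount of 0.1 gave -0.75 for OsTPP2 in APO and -0.35 for OsTPP9 in IR64. Fits of the compared groups alone called OsTPP1 (-4.42) and OsTPP7 (-1.88) in APO. The cause of these changes was not tested.

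Counts of trehalose genes called are given with the share of all genes called. In APO they were 3 (6.8% higher and 7.6% lower), against 0 on deposited TPM (0.462% of all genes called), 0 with 12 nuclear-scaled libraries (3.03%), 5 with weights (22%), 1 with the pseudocount of 0.1 (10.8%), 7 in the fit of the APO groups (23.2%) and 0 to 6 on leaving out a library (4.52 to 20.9%). In IR64 they were 0, against 4 with weights (26.4%) and 0 to 4 on leaving out a library (0.268 to 17.1%). With 1 library left out OsTPS1 (response difference) ran from -0.58 to 0.29, OsTPP1 from -5.48 to -3.36 in APO and -0.33 to 2.00 in IR64, OsTPP2 from -1.27 to 1.89 in APO, -1.19 to 1.97 between drought groups and -0.17 to 2.99 in the response difference, and OsTPP7 from 5.56 to 6.23 between controls. OsTPP6 ran from -0.77 to 0.41 in IR64, OsTPP9 in IR64 from -0.62 to 1.604 and OsTRE in IR64 from -1.65 to 0.58. A lone APO library is then assumed to vary like the other groups.

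Replicate numbers showed no clear pairing in IR64, where deviations of same-numbered control and drought libraries correlated at -0.165, 0.034 and 0.0089. Different-numbered control and drought libraries of IR64 ran from -0.140 to 0.213. For APO 2 the value was -0.114. With 2 libraries in each APO group every APO pair is at 0.114 or -0.114, so pairing cannot be read there. The replicate block called 4 trehalose genes in APO, OsTPP1 among them (-5.45), with 10.7% of all genes called. In IR64 it called 0, with 0.71% of all genes called. OsTPS2 in APO was at -0.093 in that fit. Depth limits most the libraries with low nuclear shares, where a listed 0 allows several nuclear-scaled TPM.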
